A study of Mus musculus with 116 samples.

Results

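Single mouse C10 cells were divided by their level of Malat1, a long nuclear RNA, and the cells with the most Malat1 were compared with those with the least across all other genes. The groups were chosen by the measured Malat1 values themselves. Of 48 single-cell C10 libraries, 45 held at least 100000 counts over genes. They were ranked by Malat1 counts per 1000000 gene counts (CPM), and the 15 highest (Malat1-high), the 15 lowest (Malat1-low) and the 15 between them (middle) were taken. The Malat1-high and Malat1-low libraries are 30 of the 116 libraries of the series.

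C10 is an established line labelled as mouse alveolar type II epithelial cells, the surfactant-making cells of the lung. All cells were grown by standard culture, with no treatment, and 1 library was made per cell by nanoSPLITS, in which the lysate of a cell in a nanodroplet is split so that RNA and protein can be measured in separate portions. The series also holds 48 single-cell libraries of SVEC, a mouse endothelial line, with the same culture and treatment labels, and C10 libraries of 1, 3 and 10 cells. Nothing in the labels says whether cells came from separate cultures, so the p-values below measure only the spread between the libraries of single cells.

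Malat1 is transcribed from chromosome 19 in the mouse, is retained in the nucleus and gathers at nuclear speckles, the compartments that store splicing factors. Its neighbour Neat1 is the RNA scaffold of paraspeckles, another nuclear body. Malat1 is among the most abundant long noncoding RNAs of many tissues, and a small tRNA-like RNA, mascRNA, is cut from its end. In single-cell libraries its level is often read together with measures of the nucleus and of library quality, and for that reason such measures are given here before the genes.

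Malat1 spanned a wide range among C10 cells. In the Malat1-high libraries it ran from 1110 CPM through a median of 2689 CPM to 71160 CPM. In the middle libraries the lowest, median and highest were 296, 677 and 1035 CPM, and in the Malat1-low libraries 5.81, 178 and 266 CPM. The medians of the outer groups differed by 15.1-fold, and their nearest members by 4.18-fold. These values chose the groups and were not tested.

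There was no gap at either boundary of the middle. The lowest Malat1-high library, at 1110 CPM, lay beside a middle library at 1035 CPM, and the highest Malat1-low library, at 266 CPM, lay beside a middle library at 296 CPM. At the top, 2 libraries stood apart. With cells numbered as in their titles, cell 1 had 249422 Malat1 counts, 7.12% of its total and 71160 CPM, and cell 11 had 17147 CPM, while the next library, cell 4, had 6046 CPM. At the bottom, cell 17 had 21 Malat1 counts among 3617111, or 5.81 CPM, with every other Malat1-low library at 83.8 CPM or more.

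**Figure D1:**
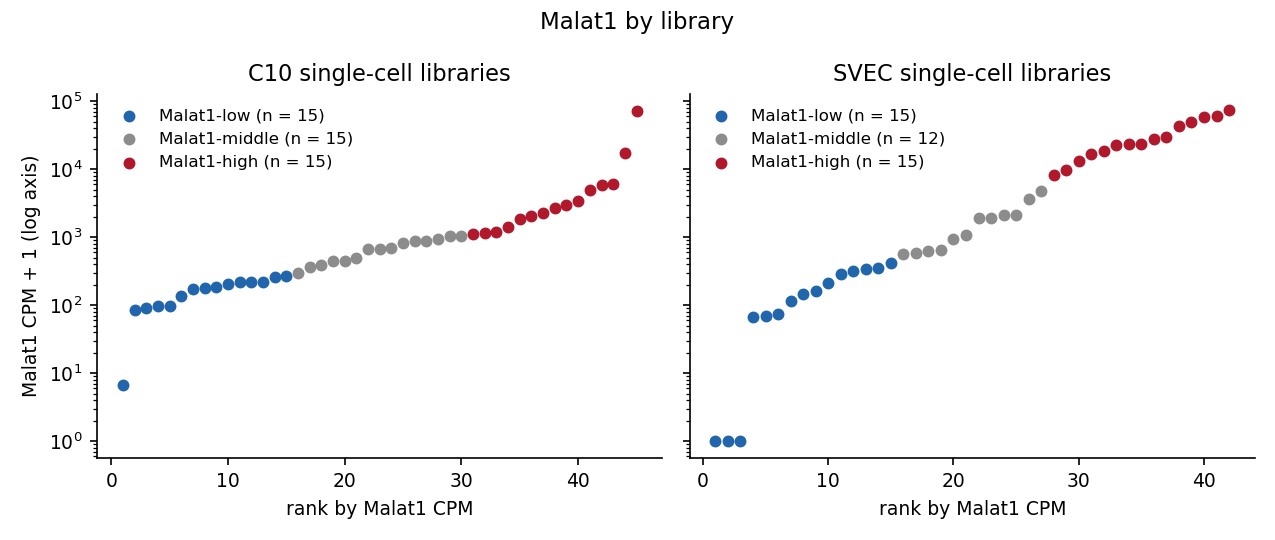
Malat1 CPM + 1 (log axis) of each single-cell library with at least 100000 counts, against its rank, in C10 (left) and SVEC (right); each point is 1 library, coloured by its Malat1 class. C10 values run without a gap from 83.8 to 6046 CPM, with cell 17 below and cells 1 and 11 above that range.

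The C10 libraries of the input series, which the ranking did not use, gave Malat1 medians between those of the outer groups. The median was 451 CPM over 8 libraries of 1 cell. One of these had no Malat1 count, with 538 genes detected, 64.6% mitochondrial counts and 95.1% of reads unaligned. It was 214 CPM over 6 libraries of 3 cells and 429 CPM over 6 libraries of 10 cells, where the highest library reached 12026 CPM.

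The depth of the groups overlapped but was not alike. Totals ran from 147254 to 4728593 counts in Malat1-high (median 2247678) and from 867479 to 5911755 in Malat1-low (median 2007318). The total is the divisor of the CPM that chose the groups and was not tested. All 4 libraries under 600000 counts among these 30 were Malat1-high. The numbers that open the library titles were also unevenly spread: 9 of 15 Malat1-high and 1 of 15 Malat1-low libraries carried a number from 1 to 15. The labels do not say what these numbers stand for, and their part in the results was not tested.

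None of 7 library measures that the ranking did not use passed the threshold between the groups after adjustment. With every library thinned to 146858 counts, 5136 ± 991 genes were detected in Malat1-high (SD, n = 15) and 4951 ± 752 in Malat1-low (SD, n = 15), with a permutation adjusted p of 0.759. The 37 mitochondrial genes held 7.17% ± 1.38 of the counts in Malat1-high and 6.62% ± 1.12 in Malat1-low (permutation test, adjusted p = 0.550).

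Aligned reads that fell in no counted feature were also compared. Intronic reads are among them where counting is over exons, which the sources used here do not state. Their share was 6.18% ± 0.779 in Malat1-high and 5.70% ± 0.480 in Malat1-low (SD, n = 15 each). The difference of 0.477 percentage points had a permutation p of 0.0511 and an adjusted p of 0.179 over the 7 measures. The share of reads set aside for low alignment quality differed by 0.0965 percentage points, with a permutation p of 0.0325 and an adjusted p of 0.179. The groups overlapped in both. The remaining 3 measures were reads unassigned for overlapping more than 1 gene, unaligned reads and the share of the 50 most abundant genes. Their permutation adjusted p-values were 0.745 or 0.759.

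**Figure D2:**
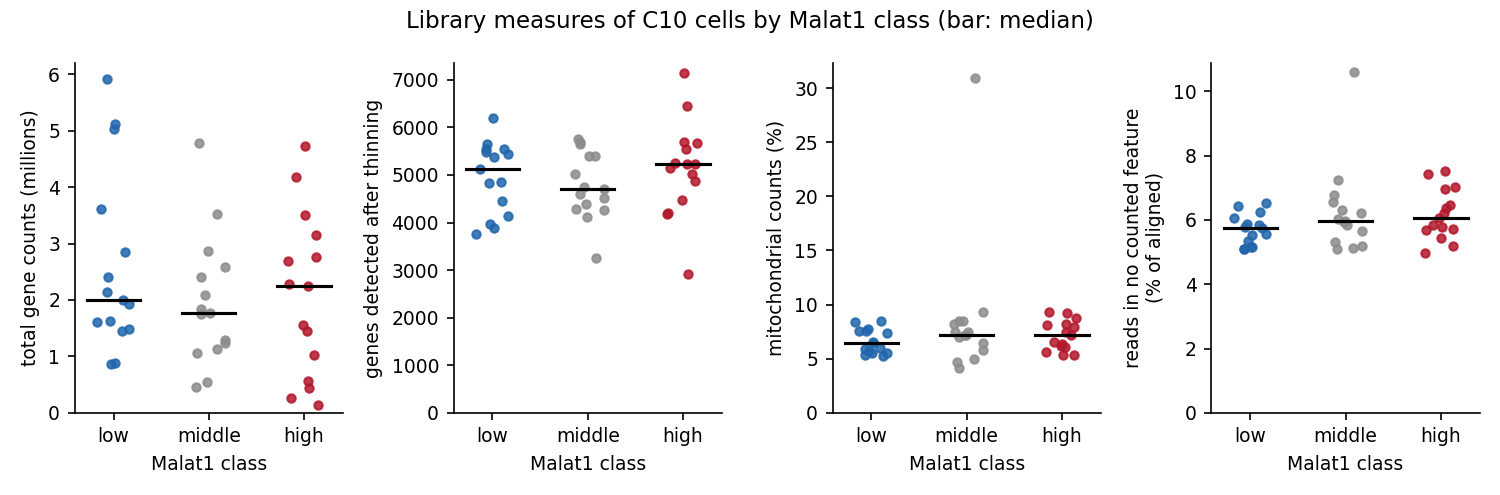
Total gene counts, genes detected after thinning to 146858 counts, mitochondrial share of counts (%) and reads in no counted feature (% of aligned reads) in C10 libraries by Malat1 class; points are libraries and bars are medians. The classes overlap in all 4 measures, and the shallowest libraries are Malat1-high.

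The labelled identity of the cells was checked against markers in the same 30 libraries. Of 22 alveolar epithelial markers, 10 had no count in any of them, among them Sftpa1, Sftpb, Sftpc and Sftpd, which encode surfactant proteins, the lung transcription factor Nkx2-1 and the keratin Krt8. Pdpn, also on the list, was counted in 15 of 15 libraries of either group, at medians of 68.1 CPM in Malat1-high and 69.4 CPM in Malat1-low. Abca3 was counted in 6 of 15 Malat1-high and 5 of 15 Malat1-low libraries. The summed level of the list was 36.3 to 367 CPM in Malat1-high and 26.5 to 345 CPM in Malat1-low. Etv5, a transcription factor of type II cells, was the one of 4 tested members with an unadjusted p under 0.05 in edgeR's test. Its log2 difference was 3.65 (SE 1.15), and 1.80 by DESeq2. It was counted in 8 of 15 libraries of either group, at medians of 0.307 CPM in Malat1-high and 0.169 CPM in Malat1-low. The highest Malat1-high library reached 93.8 CPM. Of 13 fibroblast and mesenchyme markers, Dcn, Vim and S100a4 were counted in every library, while Pdgfrb, Lum, Fap, Thy1 and Postn had no count. That list summed to 5546 to 17339 CPM in Malat1-high and 6554 to 14039 CPM in Malat1-low. The cells are therefore called C10 cells here and given no other type. Of 18 endothelial markers 12 had no count, and the list summed to at most 48.3 CPM in a Malat1-high library and 21.4 CPM in a Malat1-low one. Of 13 leukocyte markers 8 had no count, including Ptprc, and the list summed to at most 16.6 CPM in a Malat1-high library and 165 CPM in a Malat1-low one, with a median of 0 in both groups.

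Across the transcriptome without Malat1, which was not tested, no gene passed the threshold between the groups, a count that depended on single libraries and on the settings. Of 8157 genes with a count in at least 10 of the 30 libraries, 0 (0.00%) were called by the quasi-likelihood test of edgeR at an adjusted p under 0.05, and the smallest adjusted p was 0.0522. At an unadjusted p under 0.05 there were 408 genes (5.00%), of which 242 (2.97% of those tested) were higher in Malat1-high and 166 (2.04%) lower. By limma on log2(CPM + 1) the number called was also 0, and 477 genes had an unadjusted p under 0.05. DESeq2 called 56 genes, 46 higher and 10 lower in Malat1-high. Leaving out each library in turn gave 0 to 11 calls, with at least 1 call in 21 of 30 fits and the most without cell 8. The balance of directions at an unadjusted p under 0.05 was not stable either. With library totals in place of TMM it was 284 higher and 137 lower, and among the same genes without the libraries numbered 1 to 15 it turned to 97 higher and 266 lower.

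What such a comparison could show depended on how often a gene was counted. The median standard error of the log2 difference was 1.09 over all genes tested and 0.32 over the 1002 genes counted in all 30 libraries. Among those well-counted genes 66 had an unadjusted p under 0.05 (6.59%), of which 43 were lower and 23 higher in Malat1-high. This balance depended on the scaling, with 29 lower and 48 higher by library totals and 32 lower and 44 higher after thinning. The median log2 difference over all genes tested was -0.05, and 0.03 by library totals.

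**Figure D3:**
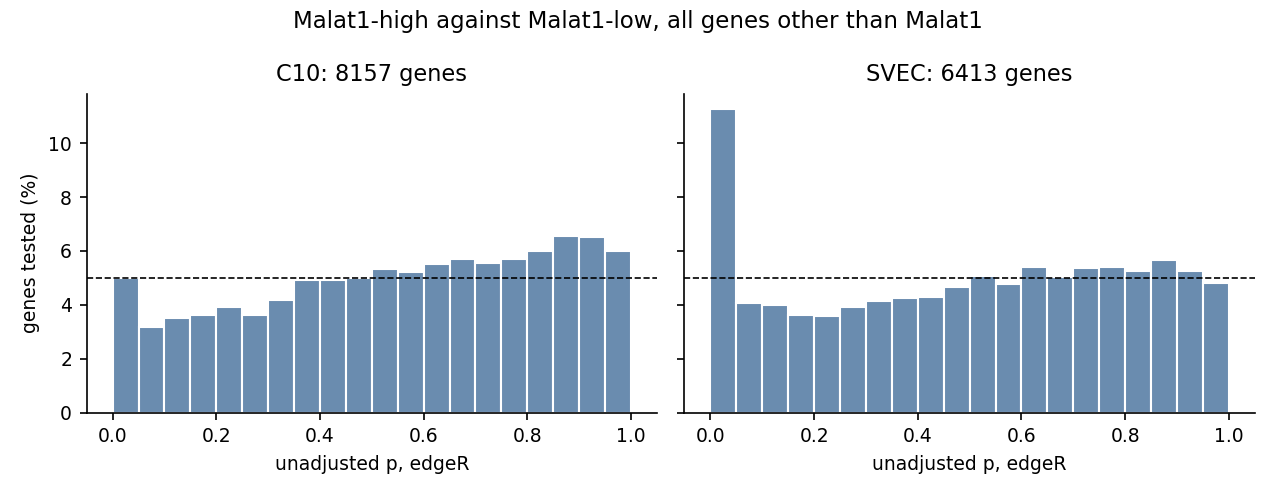
Share of genes tested (%) in each bin of unadjusted p (edgeR, bins of 0.05) for Malat1-high against Malat1-low libraries in C10 (left) and SVEC (right); the dashed line is an even spread. The first bin holds 408 of 8157 genes in C10 and 723 of 6413 in SVEC.

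The 5 genes with the smallest p among those higher in Malat1-high were Katnal2, Gm33596, Xpnpep3, Bcl11a and Slx1b, each with an adjusted p of 0.0522 in edgeR's test and so not past the threshold. All 5 were rarely counted genes. Katnal2 encodes a relative of the katanin subunit that severs microtubules. It ranged from 0 through a median of 0.635 CPM to 95.6 CPM in Malat1-high, where 11 of 15 libraries had a count, and from 0 to 0.519 CPM in Malat1-low, where 3 of 15 did. In the middle libraries 6 of 15 had a count. The groups overlapped from 0 to 0.519 CPM, and most of the 172 counts in Malat1-high came from cell 1, with 94, and cell 4, with 53. Malat1-low held 3 counts in all. The ratio of summed counts per total was 72.9, with an exact 95% counting interval of 24.5 to 357. That interval treats every read as a separate draw and leaves out the spread between cells. The fitted log2 difference was 5.97 (SE 1.13).

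Gm33596, an annotated long noncoding RNA of unknown function, was counted in 12 of 15 Malat1-high, 5 of 15 middle and 3 of 15 Malat1-low libraries. Its level in Malat1-high ran from 0 through a median of 1.09 CPM to 35.0 CPM in cell 1, and in Malat1-low from 0 to 1.14 CPM. The fitted log2 difference was 4.63 (SE 0.91). Summed over each of the 3 C10 classes, its counts stood in a similar proportion to those of Malat1. There were 166 Gm33596 counts in Malat1-high, 10 in the middle and 3 in Malat1-low, which is 4.53, 4.98 and 5.04 per 10000 Malat1 counts. Of the 166, 114 lay in cell 1, which also held 249422 of the 366395 Malat1 counts of Malat1-high. The middle and Malat1-low proportions rest on only 10 and 3 counts. In the 8 Malat1-high libraries with at least 5000 Malat1 counts, the proportion lay between 1.85 and 7.28 per 10000. Katnal2 had 4.69, 20.9 and 5.04 per 10000 in the same 3 groups.

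In libraries outside the C10 ranking the proportion varied more. It was 7.74 per 10000 Malat1 counts over the 15 SVEC libraries highest in Malat1, 6.62 over the 15 lowest (from 1 count) and 0.945 over the 12 between them (also from 1 count). It was 2.23 over the C10 libraries of 1 cell and 2.92 over those of 10 cells. Among the libraries of 3 cells, 1 library had 275 Gm33596 counts, or 374 per 10000. Whether reads of Malat1 were counted at Gm33596 was not tested, since no sequence of the Gm33596 transcript was used here. Its difference between the groups is therefore not taken as independent of the values that chose them.

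Xpnpep3, a mitochondrial peptidase gene that overlaps Dnajb7 and Gm17025 in the annotation, had 807 counts in Malat1-high, 558 of them in 1 library, and 9 in Malat1-low. It was counted in 11 and 6 libraries. Slx1b, a subunit gene of a structure-specific nuclease that overlaps Sult1a1, had 428 counts against 8, in 10 and 4 libraries. In Malat1-high, 214 of the 428 lay in 1 library. Bcl11a, a zinc-finger transcription factor, had 91 counts against 2, in 9 and 2 libraries, with 76 of the 91 in 1 library. The middle libraries held 646 counts of Xpnpep3, 21 of Slx1b and 29 of Bcl11a. In each of these genes the median Malat1-low library had no count.

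The 5 genes with the smallest p in the other direction had edgeR adjusted p-values of 0.135 to 0.152. They were Ptpn6, a protein tyrosine phosphatase, Rfx2, a transcription factor of cilia genes, Fam220a, and the zinc-finger genes Zfp184 and Zswim4. Ptpn6 had 8 counts in Malat1-high and 446 in Malat1-low, of which 431 lay in 1 library. In Rfx2, 176 of the 188 Malat1-low counts lay in 1 library, and in Zswim4 181 of 191. None of these 5 genes was counted in more than 9 of the 15 Malat1-low libraries.

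Neat1, the transcript most often named beside Malat1, did not differ detectably in C10. In Malat1-high it ran from 0 through a median of 4.15 CPM to 304 CPM, with counts in 9 of 15 libraries. In the middle it ran from 0 to 552 CPM with counts in 7 of 15, and in Malat1-low from 0 to 113 CPM, also with counts in 7 of 15. The log2 difference was 1.46 (SE 1.36), with an adjusted p of 1.00 in edgeR's test. The groups overlapped over most of their range. Cell 11, second in Malat1, had no Neat1 count, and cell 17, lowest in Malat1, had one of the Malat1-low levels above 0.

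Of 7 tested nuclear long noncoding RNAs, 0 passed, 1 had an unadjusted p under 0.05 and the list's median log2 difference was 0.54 against -0.05 for all genes. That member was Firre, a chromatin-associated RNA of the X chromosome, at 2.98 (SE 0.95) and at 0.40 by DESeq2. It was counted in 9 of 15 Malat1-high and 7 of 15 Malat1-low libraries, at medians of 0.319 and 0 CPM. With a count required in 20 of the 30 libraries, 3 members were tested and the list's median was -0.23. Tug1 and Pvt1, the other abundant members beside Neat1, stood at 0.11 (SE 0.92) and 1.29 (SE 1.37). Of 13 tested genes that flank Malat1 on chromosome 19, none passed or had an unadjusted p under 0.05. Their median was -0.15, and Fam89b, among the 3 most abundant, differed by -0.004 (SE 0.58).

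Splicing factors and paraspeckle proteins, the partners of Malat1 and Neat1, had no member past the threshold. The median over 25 tested SR proteins and related splicing factors was 0.27. Srsf3 stood at -0.07 (SE 0.22), Srsf7 at -0.02 (SE 0.33) and the helicase Ddx5 at 0.24 (SE 0.40). One, Srsf5, had an unadjusted p under 0.05, at -0.88 (SE 0.38). Of 17 tested paraspeckle proteins 0 passed, none had an unadjusted p under 0.05, and the median was -0.10. Hnrnpk stood at -0.03 (SE 0.25). Of 17 tested host genes of small nucleolar RNAs, which are noncoding transcripts spliced in the nucleus, 0 passed. Of these, 15 had positive differences, with a median of 0.29. Gas5 was at 0.14 (SE 0.38) and Snhg3 at 0.46 (SE 0.46).

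The list with the largest share of genes at an unadjusted p under 0.05 was glycolysis, the pathway from glucose to pyruvate and lactate. Of 16 listed genes 14 were tested and 0 passed. At an unadjusted p under 0.05, 9 were lower in Malat1-high (Hk1, Gpi1, Aldoa, Tpi1, Gapdh, Pgam1, Eno1, Pkm and Ldha) and none higher, where 2.04% of all genes tested were lower at that level. Apart from Hk1, these genes were counted in all 30 libraries. Among the 1002 genes so counted, 43 were lower and 23 higher at that level. Differences were negative in 12 of the 14 tested glycolytic genes, with a median log2 difference of -0.58 against -0.05 for all genes. Genes of a pathway vary together from cell to cell, so these 9 are not 9 separate observations, and the lists were written with earlier results of these cells known.

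Gapdh, the enzyme that oxidises glyceraldehyde 3-phosphate, ran from 647 through a median of 1758 to 2799 CPM in Malat1-high. In the middle the median was 1914 CPM, and in Malat1-low the values ran from 1123 through 2756 to 3814 CPM. The groups overlapped between 1123 and 2799 CPM, and 7 Malat1-low libraries lay above every Malat1-high library. Its log2 difference was -0.68 (SE 0.19, edgeR adjusted p = 0.183). Aldoa, which splits fructose bisphosphate, had medians of 1653 CPM in Malat1-high and 2198 CPM in Malat1-low and differed by -0.48 (SE 0.20, edgeR adjusted p = 0.763). Tpi1, which interconverts the products of that step and overlaps Spsb2 in the annotation, had medians of 1047 and 2055 CPM and differed by -0.57 (SE 0.23, edgeR adjusted p = 0.726). Hk1, which starts the pathway, was counted in 4 of 15 Malat1-high and 12 of 15 Malat1-low libraries. Among members without an unadjusted p under 0.05, Pgk1 stood at -0.16 (SE 0.30), the glucose transporter gene Slc2a1 at 0.15 (SE 1.27) and Hk2 at 0.15 (SE 0.96). Whether these differ from the other members was not tested.

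Summed over the tested glycolytic genes, the level was 4283 to 17575 CPM in Malat1-high (median 8754), 7489 to 17504 CPM in the middle (median 11243) and 7272 to 21045 CPM in Malat1-low (median 14119). The order of the medians ran opposite to Malat1 over the 3 classes, while within each class the sum had almost no relation to Malat1. Spearman's rho was 0.061 within Malat1-high, 0.007 within the middle and 0.050 within Malat1-low, and -0.369 over all 45 libraries, given as a description since the points share the CPM divisor. The number of genes at that level changed with the libraries included. Without the 3 Malat1-high libraries under 500000 counts, 3 glycolytic genes in place of 9 had an unadjusted p under 0.05 and the median was -0.39. Without libraries numbered 1 to 15 the number was 6 with a median of -0.71, and without cells 1 and 11 it was 10 with a median of -0.73. With log2 total count as a covariate it was 8 with a median of -0.55, and after thinning 7 with a median of -0.47. Spearman's rho of the sum with the total count was 0.389 within Malat1-high and -0.532 within Malat1-low. The part of depth in these values was not tested.

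**Figure D4:**
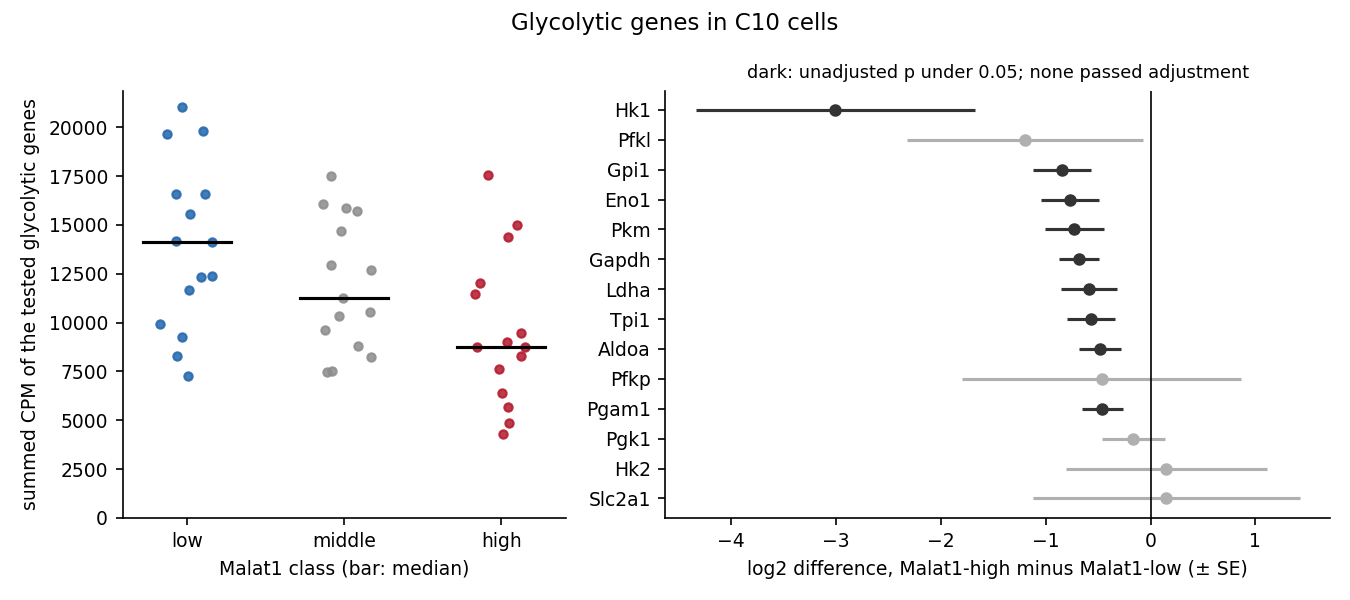
Left, summed CPM of the 14 tested glycolytic genes in each C10 library by Malat1 class (bars are medians); right, log2 difference of each gene between Malat1-high and Malat1-low with its standard error. The classes overlap, the medians are 8754, 11243 and 14119 CPM for high, middle and low, and no gene passed adjustment.

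Other metabolic and translational lists had smaller medians. Of 63 tested nuclear genes of oxidative phosphorylation 0 passed, with a median of 0.09. At an unadjusted p under 0.05, 3 were higher and 2 lower. The lower ones included Uqcrc1, a complex III subunit, with medians of 212 CPM in Malat1-high and 417 CPM in Malat1-low and a log2 difference of -1.05 (SE 0.28, edgeR adjusted p = 0.166). Of 13 mitochondrially encoded genes, COX1 alone had an unadjusted p under 0.05, at -0.27 (SE 0.12), and COX3 stood at 0.09 (SE 0.14). Of 79 tested ribosomal protein genes 60 had positive differences, with a median of 0.15. At an unadjusted p under 0.05, 4 were higher and 1 lower, where all genes tested gave 2.97% and 2.04%. Among the 1002 genes counted in all 30 libraries, 23 were higher and 43 lower at that level. The number of ribosomal protein genes at that level depended on the scaling. By library totals 16 were higher and 0 lower, and both limma and thinning gave 12 higher and 0 lower, while without the libraries numbered 1 to 15 1 was higher and the median was -0.02. Rpl35 had medians of 2486 and 1897 CPM and differed by 0.36 (SE 0.14), Rplp0 by 0.00 (SE 0.14). Of 34 translation factors none had an unadjusted p under 0.05, and Eef1a1 stood at -0.22 (SE 0.18).

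Cell cycle position, which spreads widely among growing cells, gave no call either. None of 33 tested S phase genes or of 46 tested G2/M genes had an unadjusted p under 0.05, and the medians were 0.01 and -0.27. The G2/M median was 0.02 by limma, the opposite sign, and -1.41 without the libraries numbered 1 to 15, where 2 genes were lower at that level. Pcna, the replication clamp, stood at 0.45 (SE 0.66), and Hmgb2 at 0.33 (SE 1.12). The summed G2/M level ran from 550 to 24531 CPM in Malat1-high and from 590 to 24655 CPM in Malat1-low, nearly the same range. The summed S phase level had medians of 3930 CPM in Malat1-high, 1479 CPM in the middle and 1537 CPM in Malat1-low, with ranges of 316 to 5638 CPM and 440 to 7462 CPM in the outer groups. Of 20 tested genes of G1 arrest and the p53 response 15 had negative differences, with a median of -0.44. Phlda3, a p53 target, was the one member with an unadjusted p under 0.05, at -2.15 (SE 1.02).

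Among structural genes, 18 of 22 tested actin and contractile genes had negative differences, with a median of -0.36, and 2 had an unadjusted p under 0.05. Actg1, cytoplasmic gamma-actin, ran from 518 through 2154 to 2971 CPM in Malat1-high and from 1599 through 3251 to 4613 CPM in Malat1-low, with a difference of -0.67 (SE 0.18, edgeR adjusted p = 0.166). Its middle median was 1993 CPM, below both. Acta2, smooth muscle actin, stood at -1.35 (SE 0.47). Actb, at medians of 2456 and 2455 CPM, differed by -0.02 (SE 0.18). Of 23 tested matrix genes 19 had negative differences with a median of -0.27 that turned to 0.04 without the libraries numbered 1 to 15, and Sparc stood at -0.26 (SE 0.24).

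The stress and housekeeping lists likewise held no gene past the threshold. The medians were -0.14 for 22 heat shock genes, -0.09 for 24 genes of the unfolded protein response, -0.04 for 16 NRF2 targets, -0.16 for 31 proteasome subunits and -0.08 for 14 genes of RNA decay. Members with an unadjusted p under 0.05 were Hspe1 at 0.63 (SE 0.26), Psmd11 at 0.78 (SE 0.31) and Sqstm1 at -0.63 (SE 0.26). For 20 immediate early genes the median was -0.30, and 0.16 by limma. For 10 interferon genes it was -0.35, and 0.24 by limma. For 18 cholesterol synthesis genes it was 0.41, and 1.36 by limma. For 14 targets of YAP and TGF-beta signalling it was 0.17. No member of these lists had an unadjusted p under 0.05 in edgeR's test. Of 23 tested genes of the nuclear lamina, pore and chromatin 2 did, Lmnb1 at 2.41 (SE 1.04) and Nup98 at 3.57 (SE 1.09), both seldom counted. Lmna stood at -0.26 (SE 0.53).

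The direction of many list medians depended on the settings. Of 28 lists with a tested member, 9 kept the sign of their median under all 8 alternatives run on the lists. These were glycolysis, actin and contractile genes, G1 arrest and p53, proteasome and fibroblast markers, all negative, and snoRNA hosts, cholesterol synthesis, YAP and TGF-beta targets, and lamina, pore and chromatin genes, all positive. With library totals in place of TMM, the sign turned for mitochondrially encoded genes, the unfolded protein response and NRF2 targets. Without the libraries numbered 1 to 15 it turned for 11 lists, among them splicing factors, oxidative phosphorylation, ribosomal proteins and S phase.

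The same ranking in SVEC gave a different outcome. Of 42 SVEC libraries with at least 100000 counts, the 15 highest in Malat1 held 8340 to 74203 CPM (median 23706) and the 15 lowest 0 to 412 CPM (median 146), with 3 at 0. Of 6413 genes tested there, 255 (3.98%) were called by the same test, all of them higher in the Malat1-high libraries. A gene could meet the count filter through the SVEC Malat1-high libraries alone. Neat1, among the 255, was counted in 14 of 15 of them and in 0 of 15 SVEC Malat1-low libraries. The median number of genes detected after thinning was also lower in SVEC Malat1-low, as given below. The part of the filter and of detection in the shared direction of these calls was not tested. In C10, 211 of those 255 genes were tested and 0 passed. Their median log2 difference was 0.21, with 121 positive and 90 negative. At an unadjusted p under 0.05, 13 were higher and 8 lower, where all genes tested gave 2.97% and 2.04%. Without the libraries numbered 1 to 15 the median turned to -0.18, with 7 higher and 17 lower.

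The difference between the lines was itself tested. The Malat1-high minus Malat1-low contrast differed between C10 and SVEC in 98 of 5908 genes (1.66%) by the interaction term of edgeR's test. It was lower in C10 for 97 and higher for 1. With a count required in 20 of the 30 libraries of each line, 2 of 2430 genes differed. Of the 98 genes, 24 had no count in any SVEC library of the low group. In SVEC these 24 met the filter through the Malat1-high libraries alone. Their calls, which are part of the 98, are not used as support. Others of the 98 may have met the filter in the same way, with a few counts in the SVEC low group. Their number was not counted, so the rest of the 98 are not taken as free of the filter. Neat1 was one of the 24 with no count in the SVEC low group. In SVEC it was counted in 14 of 15 Malat1-high libraries, at 0 through a median of 196 to 1052 CPM, and in 0 of 15 Malat1-low libraries. It entered the test through the SVEC Malat1-high libraries alone, so its call is not used as support, and its fitted size depends on the prior count of the fit.

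Several measures moved with the contrast between lines, and their part in it was not tested. The SVEC groups were farther apart in Malat1, and only 2 of the 15 C10 Malat1-high libraries, cells 1 and 11, lay within the SVEC Malat1-high range. Genes detected after thinning had medians of 5341 in SVEC Malat1-high and 3743 in SVEC Malat1-low, against 5235 and 5119 in C10. Mitochondrial shares had medians of 2.24% and 4.48% in the SVEC groups, against 7.22% and 6.45% in C10. SVEC totals were lower, with medians of 639587 and 656486 counts. Each line may be 1 culture and 1 set of runs, and line and batch cannot be told apart.

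The 255 SVEC genes were also counted library by library in C10, after thinning. Of these genes, 54 to 175 were detected in Malat1-high (median 104), 61 to 121 in the middle (median 83) and 51 to 109 in Malat1-low (median 86). In SVEC the numbers were 121 to 186 in Malat1-high (median 156) and 15 to 40 in Malat1-low (median 27), which did not overlap; those values come from the contrast that chose the genes. Cell 1, the C10 library highest in Malat1, detected 175, inside the SVEC Malat1-high range, and also had the most genes detected after thinning, 7142. Cell 11, second in Malat1, detected 71.

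**Figure D5:**
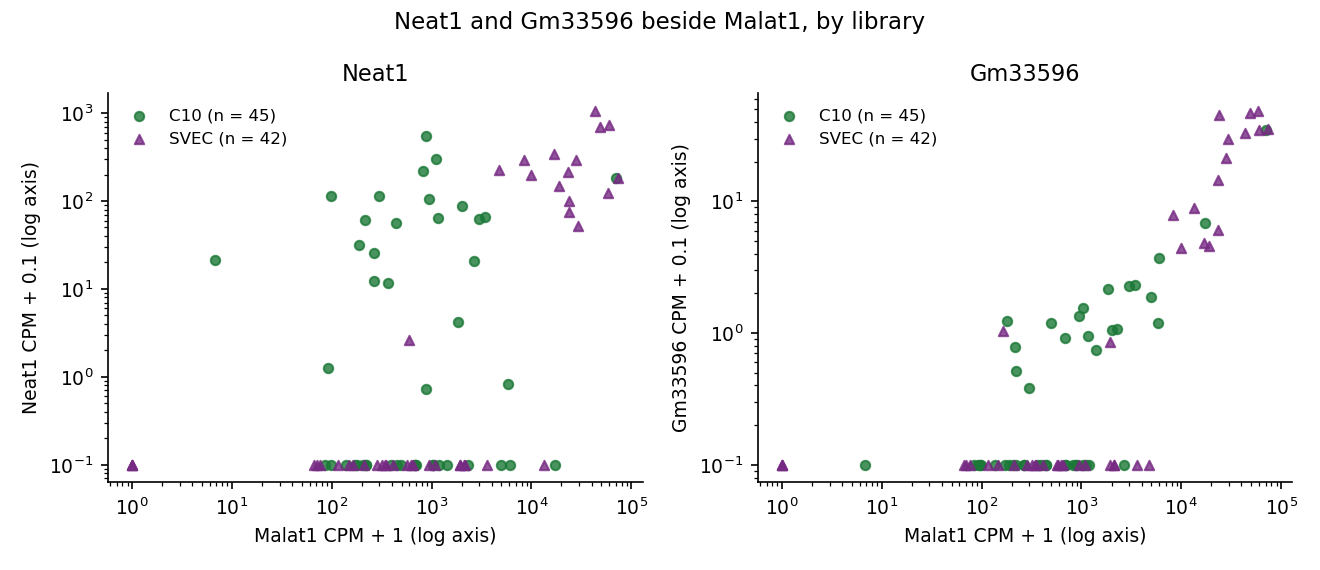
CPM + 0.1 of Neat1 (left) and Gm33596 (right) against Malat1 CPM + 1, log axes, 1 point per library of C10 (circles, n = 45) or SVEC (triangles, n = 42); points on the bottom line have no count. Neat1 is spread over the C10 range of Malat1 and, in SVEC, is counted in 14 of the 15 libraries highest in Malat1. Gm33596 is counted in 12 of 15 high, 5 of 15 middle and 3 of 15 low C10 libraries. In SVEC it is counted in 15 of 15 high, 1 of 12 middle and 1 of 15 low libraries.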

How the data were processed

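Per the labels, full-length cDNA of each cell was made with SMART-Seq v4 Plus and sequenced as single reads. The deposited files hold whole-number read counts for 40202 gene symbols and 5 counters of unassigned reads. The submitters' processing notes name FastQC, STAR and HTSeq; versions, genome build and strand setting are not given in the sources used here, so overlapping genes are uncertain and no coordinates are given. No molecular identifiers are described, so counting intervals cover counting error only and counts are not corrected for gene length. Of the symbols, 38730 match the RefSeq annotation of GRCm38.p6, used for names, overlaps and the 37 mitochondrial genes.

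The Malat1 groups were formed as stated in the report, and the Malat1 row was then removed, so that CPM of other genes excludes it. Genes with a count in at least 10 of the 30 libraries, whatever their group, were tested with edgeR 4.0.16 (R 4.3.3; TMM, quasi-likelihood F test, Benjamini-Hochberg, adjusted p under 0.05). The interaction with SVEC used genes meeting this in each line. Standard errors come from the F statistic. The alternatives included limma 3.58.1 with a pseudocount of 1, DESeq2 1.42.0, other filters, covariates, group sizes and libraries left out. Scripts were tested on simulated data. The 7 library measures were compared by two-sided permutation tests with 100000 resamples. The closest pair of libraries within a group had a chi-square of 17.1 per degree of freedom, so none was counted as a duplicate.

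The members and gene lists were chosen with earlier results of these data known. Genes named were Malat1, Neat1, the genes past the threshold or, with fewer than 5, the 5 with the smallest p in each direction, and of each list up to 3 with the highest mean CPM. Other list members were named after their values were seen, as those at an unadjusted p under 0.05.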

Additional observations from a re-analysis of the deposited data

Results flagged for a closer look

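The Malat1-high minus Malat1-low contrast differed between C10 and SVEC for 98 of 5908 genes by edgeR's interaction test, where C10 was lower for 97. Of these 98, 24 had no count in any SVEC Malat1-low library, so they entered through the SVEC Malat1-high libraries alone. Their calls are not used as support. The interaction of Neat1 was -10.2 (SE 1.97, edgeR adjusted p = 0.00166), with 9 of 15 Malat1-high and 7 of 15 Malat1-low libraries counting it in C10, and 14 of 15 and 0 of 15 in SVEC. Neat1 entered the test through the SVEC Malat1-high libraries alone and is set against a group with no count, so the size of this value depends on the prior count of the fit and neither the value nor its p is used as support. With genes counted in at least 20 of the 30 libraries of each line, which no group of 15 can meet alone, 2 of 2430 genes differed.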

How the results depend on the processing

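The number of genes past the threshold between Malat1-high and Malat1-low C10 libraries was 0 in the reported test and stayed 0 with limma, with a count required in 20 of the 30 libraries, with genes detected as a covariate, with 10 libraries a side, and without libraries numbered 1 to 15. It was 1 with a count required in all 30 libraries and 1 after thinning, 2 without mitochondrial genes, 3 with the mitochondrial share and 8 with log2 total count as a covariate, 5 with library totals in place of TMM, 6 with groups chosen again among libraries of at least 500000 counts, 16 with a slope on log2(Malat1 CPM + 1), 28 with 20 libraries a side and 56 with DESeq2. With a count in only 1 of 30 libraries required it was 1999 of 15844, 1075 higher and 924 lower. Of the alternatives added after seeing the data, leaving out cells 1 and 11 gave 4 and leaving out libraries under 500000 counts gave 9. Leaving out each library in turn gave 0 to 11, the most without cell 8. The cause of these differences was not tested. Among the alternatives in which each was tested, Katnal2 was called in 11 of 15, Gm33596 in 10 of 15, Xpnpep3 in 8 of 15, Slx1b in 6 of 15 and Bcl11a in 8 of 14. These genes were chosen for the smallest p in the same libraries, most of which the alternatives fit again, so the repeated calls are not support. Katnal2, Gm33596, Xpnpep3 and Slx1b had counts in at least 10 Malat1-high libraries, enough to enter the test through that group alone.

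The number of genes whose contrast differed between the lines was 98, 88 with library totals and 71 with limma, and 2 of 2430 tested with a count in 20 of the 30 libraries of each line. The cause was not tested. With groups chosen among libraries of at least 500000 counts, the difference in reads overlapping more than 1 gene (0.0348 percentage points) was -0.0485. That in unaligned reads (0.867) was -1.63. Leaving out each library in turn, the first ran from -0.0116 to 0.0665. No measure passed the threshold under any of these alternatives. No paired analysis was possible because the 2 groups come from one set of cells and share no replicate numbers. Depth limits the genes counted in few libraries, whose median standard error is given above.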
